A study of Mus musculus with 72 samples.

Results

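The atria of mice lacking Gnb5 were compared with those of wild-type mice, and the comparison used 12 of the 72 RNA-seq libraries of the study, 6 from Gnb5-/- and 6 from Gnb5+/+ mice. Libraries were chosen by genotype and tissue as the sample titles give them, and nothing measured entered the choice. All mice were males of 18 weeks on a C57BL/6J background, and each library came from a separate animal. The Gnb5-/- mice carried a germline deletion of exon 3 on both copies of Gnb5, so the deletion was present in every tissue and from the embryo onwards. The labels give no treatment for any mouse. Left and right atria were taken whole, so that each library mixed working heart muscle with cells of the sinoatrial and atrioventricular nodes, fibroblasts, vessels, nerves and any attached fat. In such bulk RNA, fewer cells of a type and less RNA per cell cannot be told apart. The 6 Gnb5+/- atria were fitted together with both groups and their levels are given where a gene turns on them, and the ventricles of the same 12 mice were used to ask which differences were particular to atria.

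Gnb5 encodes G beta 5, the divergent beta subunit of heterotrimeric G proteins, which forms a stable dimer with the R7 family of regulators of G protein signalling (RGS6, RGS7, RGS9 and RGS11). In the atria, acetylcholine from vagal nerves binds the M2 muscarinic receptor, which frees G beta-gamma subunits to open GIRK potassium channels and slow the pacemaker. R7 RGS proteins end that signal by speeding the hydrolysis of GTP on the G alpha subunit. Gnb5 itself lies on chromosome 9, and the genes called on that chromosome are therefore set apart from all others below. The gene lists of pathways and cell types keep their chromosome 9 members.

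The deleted segment is coding sequence of Gnb5. The sources used here name exon 3 without a transcript, and the annotation numbers it in more than 1 way, so both candidates on GRCm38 are shown. In transcript Gnb5-202, exon 3 spans chr9:75314272-75314383 on the plus strand, 112 bases that are coding throughout and that count as exon 2 in Gnb5-201:
Gnb5-202 exon 3: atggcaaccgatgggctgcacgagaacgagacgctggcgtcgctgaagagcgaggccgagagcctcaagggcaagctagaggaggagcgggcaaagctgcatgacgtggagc
In transcript Gnb5-201, exon 3 spans chr9:75327133-75327269, 137 coding bases:
Gnb5-201 exon 3: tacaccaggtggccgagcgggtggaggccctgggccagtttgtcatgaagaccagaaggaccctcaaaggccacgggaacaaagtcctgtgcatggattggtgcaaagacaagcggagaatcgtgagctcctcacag
Neither length is a multiple of 3. The counts cover the whole gene and not this exon alone.

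Gnb5 followed the genotype labels in every atrial library. Its normalised count (CPM, the reads of a gene scaled to a common library size by TMM factors) was lowest at 26.6, at a median of 30.3 and highest at 32.9 in the 6 Gnb5+/+ atria, and ran from 1.49 through 1.77 to 2.601 in the 6 Gnb5-/- atria. The Gnb5+/- atria lay between them, from 13.8 to 18.9. No library of one genotype overlapped another. Gnb5-/- against Gnb5+/+ atria gave a log2 fold change of −4.01 ± 0.13 (SE, n = 6 per group, adjusted p = 3.2e-14, edgeR's quasi-likelihood test with Benjamini-Hochberg adjustment, as for every adjusted p below), so that 0.0621 of the wild-type level was still counted on the gene.

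The 12 libraries held between 31865419 and 46118252 reads counted on genes. Markers of atrial muscle were abundant throughout: Nppa, Myl7, Myl4, Sln, Myh6 and Dkk3 summed to between 45934 and 56373 CPM in Gnb5+/+ and between 44972 and 60868 CPM in Gnb5-/- atria. Markers of other cells varied more. The 5 ventricular markers (Myl2, Myl3, Irx4, Hey2 and Myh7) summed to between 72.0 and 1218 CPM in Gnb5+/+ and between 108 and 405 CPM in Gnb5-/- atria, the highest being Gnb5+/+ replicate 2. That library also lay farthest from its group, with a median absolute log2 distance of 0.276 against 0.130 to 0.208 in the other 17 atrial libraries. Adipocyte markers summed to 560 CPM in Gnb5-/- replicate 2 against at most 233 CPM in the other 5 Gnb5-/- atria and at most 191 CPM in Gnb5+/+ atria. The fast skeletal myosins Myh1, Myh2 and Myh4 reached 5.72, 5.97 and 7.49 CPM in Gnb5-/- replicate 4 and at most 0.170 CPM in the other 11 libraries. Reads on mitochondrially encoded genes took 23.4% to 34.5% of the counts in Gnb5+/+ and 14.1% to 23.9% in Gnb5-/- atria.

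Of the 16181 genes tested, 41 differed at an adjusted p below 0.05, which is 0.253% of them. There were 22 genes higher (0.136%) and 19 lower (0.117%) in Gnb5-/- atria, and the median log2 fold change of all genes was 0.00. Chromosome 9 held most of these differentially expressed genes (DEGs): 27 of its 933 genes tested (2.89%), Gnb5 included, against 14 of the 15248 genes of all other chromosomes (0.0918%). At an unadjusted p below 0.05 there were 18.5% of the chromosome 9 genes, whereas the share lay between 5.76% and 9.41% on each of the other autosomes and X. Groups of 6 that did not overlap were seen for 99 genes (0.612%), among them 40 on chromosome 9 (4.29%) and 59 elsewhere (0.387%). The spread of log2 fold changes was likewise wider on chromosome 9 (SD 0.53) than on any other autosome or X (SD 0.21 to 0.37).

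Besides Gnb5, 26 DEGs lay on chromosome 9, 10 higher and 16 lower in Gnb5-/- atria. They were spread over many megabases. Within 10 Mb of Gnb5, 8 of 118 genes tested were called (6.78%), then 2 of 149 between 10 and 20 Mb, 5 of 160 between 20 and 30 Mb, 10 of 244 between 30 and 40 Mb (4.10%), and 1 of 261 beyond 40 Mb. On the side of Gnb5 toward the end of the chromosome 21 of 408 genes were called, and on the side toward its start 5 of 524, the farthest 44.4 Mb away.

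**Figure D1:**
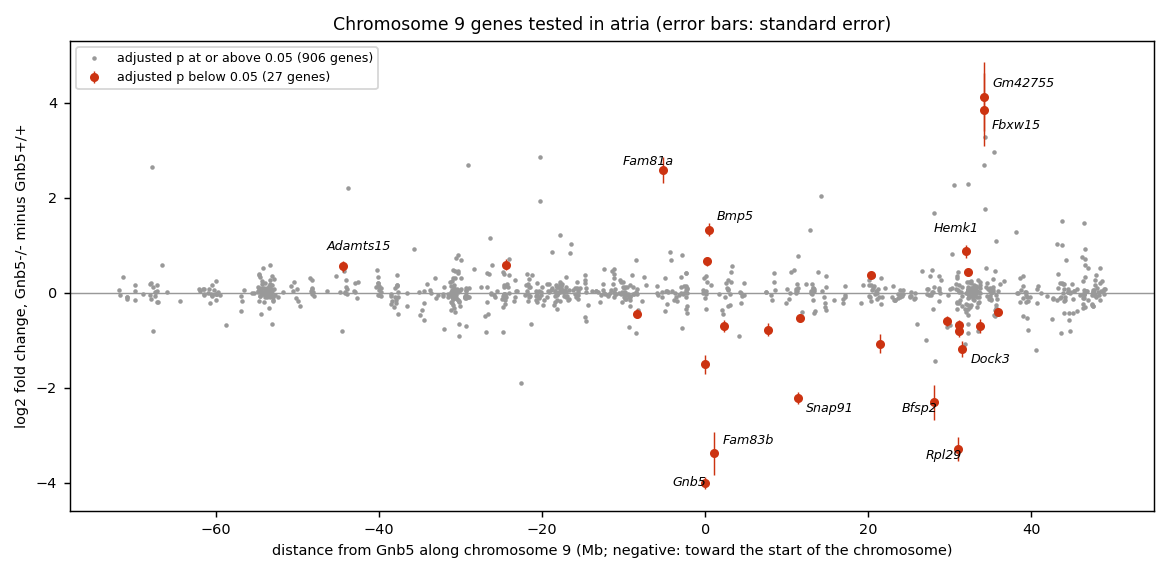
Log2 fold change between Gnb5-/- and Gnb5+/+ atria for the 933 chromosome 9 genes tested, plotted against distance from Gnb5 in Mb. The 27 genes with an adjusted p below 0.05 (red) lie mostly to the right of Gnb5, toward the end of the chromosome, and the other 906 are grey.

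Close to Gnb5, neighbours moved in both directions. Myo5c, an unconventional myosin motor whose gene ends 0.000837 Mb before Gnb5 begins, ran from 4.39 through 6.45 to 8.85 CPM in Gnb5+/+ and from 1.36 through 2.32 to 3.22 CPM in Gnb5-/- atria. The groups did not overlap, and it fell by 1.51 ± 0.20 on the log2 scale (adjusted p = 0.000657). Lysmd2, 0.280 Mb away, rose, with 10.1 to 14.5 CPM in Gnb5+/+ and 17.2 to 22.3 CPM in Gnb5-/- atria (0.66 ± 0.09 on the log2 scale, adjusted p = 0.001).

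Bmp5, a secreted ligand of the bone morphogenetic protein family, lies 0.429 Mb from Gnb5. It ran from 3.17 through 3.39 to 3.67 CPM in Gnb5+/+ and from 6.52 through 8.73 to 10.6 CPM in Gnb5-/- atria. All 6 Gnb5-/- libraries were above all Gnb5+/+ libraries. Of the Gnb5+/- atria 5 lay between them and the lowest, at 3.49 CPM, was inside the Gnb5+/+ range. The log2 fold change was 1.33 ± 0.13 (adjusted p = 7.13e-06). In the ventricles of the same mice its log2 fold change was −0.18 ± 0.25. Fam83b, 1.14 Mb away, was near the limit of detection and fell, with 0.295 to 0.912 CPM in Gnb5+/+ and at most 0.0814 CPM in Gnb5-/- libraries (log2 fold change −3.38 ± 0.46, adjusted p = 0.000727).

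Fam81a, 5.16 Mb from Gnb5 toward the start of the chromosome, showed a rise that was nearly complete in heterozygotes. Its level ran from 1.04 through 1.51 to 4.83 CPM in Gnb5+/+, from 7.64 through 10.1 to 11.9 CPM in Gnb5+/- and from 8.57 through 12.1 to 13.4 CPM in Gnb5-/- atria. Gnb5+/+ replicate 2 alone was above 1.73 CPM in its group. Between Gnb5-/- and Gnb5+/+ the log2 fold change was 2.59 ± 0.28 (adjusted p = 3.26e-05). Hmgn3, a nucleosome-binding protein 7.76 Mb away, fell by 0.78 ± 0.13 on the log2 scale (adjusted p = 0.00854), with 7.10 to 11.6 CPM in Gnb5+/+ and 4.04 to 6.68 CPM in Gnb5-/- atria.

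Snap91 encodes AP180, which assembles clathrin coats and is best known from nerve terminals. It ran from 19.0 through 26.0 to 31.98 CPM in Gnb5+/+, from 15.8 to 17.1 CPM in Gnb5+/- and from 3.90 through 5.46 to 7.29 CPM in Gnb5-/- atria. No library of one genotype reached into another. Its log2 fold change was −2.22 ± 0.13 (adjusted p = 1.24e-09), the smallest p after Gnb5. The other 20 genes of the clathrin list, which holds adaptors, dynamins and the AP180 relative Picalm, had no DEG, and the list had a median log2 fold change of −0.04. Near Snap91, 11.7 Mb from Gnb5, the reductase gene Cyb5r4 fell by 0.52 ± 0.08 on the log2 scale (adjusted p = 0.00205), with 41.9 to 58.0 CPM in Gnb5+/+ and 34.96 to 38.6 CPM in Gnb5-/- libraries.

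A second group of DEGs lay farther out on the side toward the end of the chromosome. Rpl29, a protein of the large ribosomal subunit, ran from 4.58 through 9.28 to 10.1 CPM in Gnb5+/+ and from 0.474 through 0.973 to 1.23 CPM in Gnb5-/- atria. Its log2 fold change was −3.29 ± 0.25 (adjusted p = 1.39e-07). The other 74 cytosolic ribosomal protein genes tested had no DEG and the list's median was 0.05, with 49 of 75 higher, so Rpl29 stood alone among them by the test. Its counted level was low, as the list summed to between 6185 and 7277 CPM in Gnb5+/+ atria. Near copies of Rpl29 on chromosome 1, described below, can share its reads, which makes its count uncertain.

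Rpl29 lies 31.1 Mb from Gnb5, and 4 more genes between it and 31.98 Mb passed the test. Parp3, a DNA repair enzyme of the poly(ADP-ribose) polymerase family, fell, with 43.6 to 69.6 CPM in Gnb5+/+ and 34.7 to 40.4 CPM in Gnb5-/- libraries (log2 fold change −0.68 ± 0.10, adjusted p = 0.001). Dock3, an activator of the GTPase Rac, fell by 1.19 ± 0.17 on the log2 scale (adjusted p = 0.001), and Abhd14b, of the alpha/beta hydrolase fold, by 0.82 ± 0.12 (adjusted p = 0.00205). Hemk1, a methyltransferase for mitochondrial release factors, rose, with 8.99 to 15.7 CPM in Gnb5+/+ and 19.7 to 23.1 CPM in Gnb5-/- libraries (0.87 ± 0.14, adjusted p = 0.00373). None of these 4 had overlapping groups.

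Bfsp2, a filament protein of the lens 28.1 Mb from Gnb5, had a log2 fold change of −2.30 ± 0.37 (adjusted p = 0.00464), although its groups overlapped (0.627 to 3.55 CPM against 0.267 to 0.702 CPM). The remaining 12 chromosome 9 DEGs had log2 fold changes from −1.08 (Pxylp1) to 4.13 (Gm42755), and 8 of the 12 had groups that did not overlap. Among these 12, named after their values were seen, were Klhl31 (−0.70), a Kelch protein of striated muscle, Mrpl3 (−0.60), of the mitochondrial ribosome, and Nprl2 (0.43), a negative regulator of the growth kinase mTORC1. Of the 27 chromosome 9 DEGs, 18 stayed below 0.05 in each of the 12 fits that left out 1 library. Of the 15 of smallest p, several also had an adjusted p below 0.05 in ventricles. Besides Gnb5 they were Snap91 (log2 fold change −3.03), Rpl29 (−2.80), Fam81a (1.40), Hemk1 (1.25), Hmgn3 (−1.11), Abhd14b (−0.75) and Parp3 (−0.72). Myo5c (−0.60), Cyb5r4 (−0.56), Lysmd2 (0.44) and Bmp5 (−0.18) were not below 0.05 there. Fam83b, Dock3 and Bfsp2 were not tested in ventricles.

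Gnb5+/+ replicate 1 stood apart from its group at distant genes of chromosome 9, while its Gnb5 level of 26.9 CPM was that of a wild-type atrium. It was the Gnb5+/+ library nearest the Gnb5-/- side at 10 of the 16 DEGs that lie 20 Mb or more from Gnb5, and at 4 of the 10 nearer ones. At Rpl29 it had 4.58 CPM against 8.54 to 10.1 CPM in the other 5 Gnb5+/+ atria, and at Hemk1 15.7 CPM against at most 11.4 CPM. At Fbxw15, an F-box gene 34.2 Mb from Gnb5 that belongs to a cluster of similar genes and may share reads with them, it had 0.570 CPM against at most 0.0784 CPM, with 1.19 to 3.68 CPM in Gnb5-/- atria. Without this library 62 genes were called, 41 of them on chromosome 9. Of these 62, 22 were not called with it, 14 of them on chromosome 9. Among the 22 were Fbxw18, Fbxw24, Fbxw25 and Fbxw26 of the same cluster, and Myh7.

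**Figure D2:**
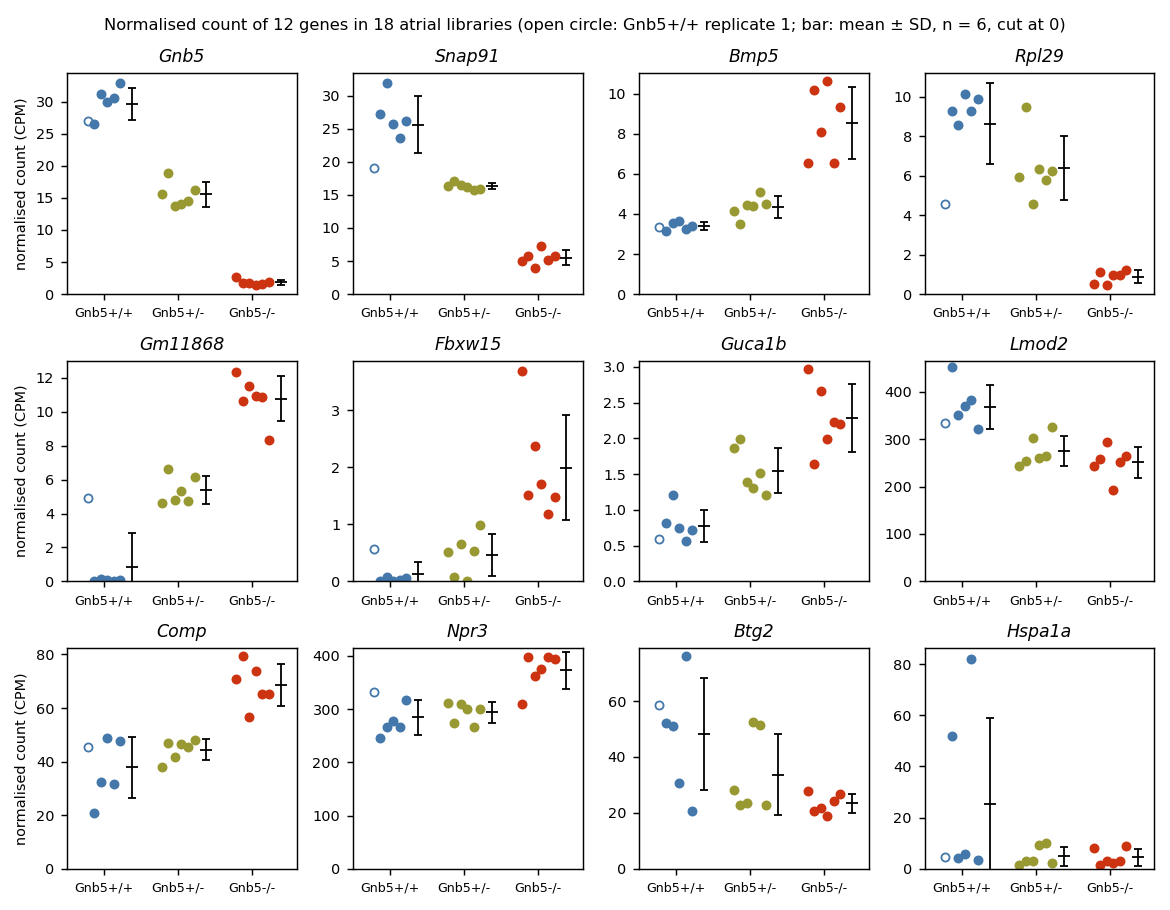
Normalised counts (CPM) of 12 genes in each atrial library of the 3 genotypes, with the mean and SD of 6 libraries; the open circle is Gnb5+/+ replicate 1. At Rpl29, Gm11868 and Fbxw15 the open circle lies between the other 5 Gnb5+/+ libraries and the Gnb5-/- libraries, and at Gnb5 it does not.

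The 14 DEGs on other chromosomes were 12 higher and 2 lower in Gnb5-/- atria. When their p-values were adjusted over the genes of the other chromosomes alone, only Gm5561 and Guca1b kept an adjusted p below 0.05 (7.33e-07 and 0.00228), and the others did not. The 14 comprised 5 processed pseudogenes and 9 protein-coding genes.

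Each of the 5 pseudogenes was a near copy of a transcript whose parent gene lies on chromosome 9. A processed pseudogene is a spliced transcript copied back into the genome, so it differs from its parent at few bases and reads from parent and copy can be assigned to either, so that the counts of both are uncertain. On chromosome 1, Gm5561 matched Rpl29 at 98.3% of 480 bases, and Gm8210 matched Rpl29 at 99.4% of 483 bases. On chromosome 13, Gm7049 matched Me1 at 98.4%. Gm11868 on chromosome 4 matched Cyb5r4 at 98.0%, and Oaz2-ps on chromosome 3 matched Oaz2 at 98.7%. Stretches of 90 bases of GRCm38 show how little separates copy and parent, with the differing bases in capitals. They are read along the transcript, and those of Rpl29 and Cyb5r4 run across an intron in the parent.
Gm5561, chr1:179520726-179520815, minus strand: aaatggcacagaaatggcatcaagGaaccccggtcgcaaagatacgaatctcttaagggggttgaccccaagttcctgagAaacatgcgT
Rpl29, chr9:106430313-106431098, plus strand: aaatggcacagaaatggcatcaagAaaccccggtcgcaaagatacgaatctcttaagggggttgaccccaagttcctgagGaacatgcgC
Gm11868, chr4:18845531-18845620, minus strand: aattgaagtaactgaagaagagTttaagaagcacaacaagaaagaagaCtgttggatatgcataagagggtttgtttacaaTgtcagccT
Cyb5r4, chr9:87027033-87029525, plus strand: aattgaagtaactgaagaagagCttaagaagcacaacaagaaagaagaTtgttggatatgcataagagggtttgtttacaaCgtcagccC
Oaz2-ps, chr3:135526233-135526322, minus strand: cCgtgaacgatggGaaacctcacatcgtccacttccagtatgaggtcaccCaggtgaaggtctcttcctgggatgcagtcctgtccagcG
Oaz2, chr9:65687829-65687918, plus strand: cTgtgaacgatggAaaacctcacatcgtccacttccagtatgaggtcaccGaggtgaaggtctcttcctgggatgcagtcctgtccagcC
The Gm5561 and Rpl29 stretches differ at 3 bases, and the other pairs at 4 each.

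Gm5561 moved down with Rpl29. It had between 39 and 69 reads in each Gnb5+/+ library and between 0 and 2 in each Gnb5-/- library. The other copies moved up. Gm11868 had between 1 and 6 reads in 5 Gnb5+/+ libraries, 206 in Gnb5+/+ replicate 1 and between 293 and 607 in Gnb5-/- libraries, with between 162 and 310 in the Gnb5+/- libraries. Oaz2-ps had 22 reads in Gnb5+/+ replicate 1, at most 1 in the other 5 and between 40 and 51 in Gnb5-/- libraries.

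Gm8210 had 12 reads in Gnb5+/+ replicate 1, at most 1 in the others and between 24 and 73 in Gnb5-/- libraries. At all 5 copies Gnb5+/+ replicate 1 was the wild-type library nearest the Gnb5-/- side, whereas it was so at 1 of the 9 protein-coding DEGs of other chromosomes. Of the parents, Rpl29 and Cyb5r4 were lower in Gnb5-/- atria, as above. Me1 and Oaz2, named because they are the parents, had log2 fold changes of 0.04 (adjusted p = 0.976) and 0.11 (adjusted p = 0.712). In ventricles the copies moved in the same directions as in atria. Gm5561 (log2 fold change −6.17), Gm7049 (2.41) and Oaz2-ps (4.24) had an adjusted p below 0.05 there, and Gm11868 (3.28) and Gm8210 (3.14) did not.

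Guca1b, a calcium-binding activator of the guanylate cyclases of photoreceptors, had the smallest p of the protein-coding genes off chromosome 9. It ran from 0.566 through 0.737 to 1.20 CPM in Gnb5+/+, from 1.21 to 1.99 CPM in Gnb5+/- and from 1.64 through 2.21 to 2.97 CPM in Gnb5-/- atria. All Gnb5+/+ libraries lay below all others, and the Gnb5+/- group reached into the Gnb5-/- range. The log2 fold change was 1.55 ± 0.21 (adjusted p = 0.000657), and it was called in all 12 fits that left out 1 library. In the ventricles its log2 fold change was 1.37 ± 0.25 (adjusted p = 0.0330).

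Lmod2, leiomodin 2, an actin nucleator that lengthens the thin filaments of heart muscle, was the 1 protein-coding DEG off chromosome 9 that was lower. It ran from 322 through 359 to 452 CPM in Gnb5+/+ and from 194 through 255 to 294 CPM in Gnb5-/- atria, without overlap, and the Gnb5+/- atria (243 to 325 CPM) covered the range between. The log2 fold change was −0.55 ± 0.10 (adjusted p = 0.0157), and this call too held in all 12 of those fits.

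Comp, a pentameric glycoprotein of cartilage and tendon that binds collagen, ran from 20.9 through 38.9 to 48.9 CPM in Gnb5+/+ and from 56.6 through 68.1 to 79.5 CPM in Gnb5-/- atria (0.86 ± 0.15 on the log2 scale, adjusted p = 0.0139). Its adjusted p was 0.0524 without Gnb5+/+ replicate 3 and 0.0508 without Gnb5+/+ replicate 5. Spon1, the matrix protein F-spondin, rose, with 73.6 to 87.8 CPM in Gnb5+/+ and 96.6 to 117 CPM in Gnb5-/- libraries (0.36 ± 0.07, adjusted p = 0.0325), and the transmembrane collagen Col23a1 too, with 7.94 to 14.7 CPM and 15.3 to 21.3 CPM (0.62 ± 0.12, adjusted p = 0.0325). None of these 3 had overlapping groups.

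Elmo1, which partners Dock proteins in activating Rac, rose by 0.41 ± 0.08 on the log2 scale (adjusted p = 0.0264), and Ankrd63 by 0.74 ± 0.14 (adjusted p = 0.0308). Npr3, the clearance receptor that removes natriuretic peptides, ran from 246 through 273 to 332 CPM in Gnb5+/+ and from 309 through 385 to 398 CPM in Gnb5-/- atria, for which the log2 fold change was 0.39 ± 0.08 (adjusted p = 0.0436). The groups of Npr3 overlapped. With 1 library left out the log2 fold changes kept close to these values (Elmo1 0.36 to 0.44, Col23a1 0.53 to 0.71, Ankrd63 0.66 to 0.83, Spon1 0.33 to 0.39, Npr3 0.35 to 0.44), while their adjusted p crossed the threshold: Elmo1 and Col23a1 were called in 5 of 12 fits, Ankrd63 in 4, and Spon1 and Npr3 in 3, with values reaching 0.138. The groups of Elmo1 and Ankrd63 did not overlap.

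Guca1b apart, the 8 protein-coding DEGs off chromosome 9 had log2 fold changes between −0.19 and 0.27 in the ventricles of the same mice, and none of the 8 passed the test there. The log2 fold change of Comp was 0.27 ± 0.15 in ventricles, that of Lmod2 −0.19 ± 0.09, that of Npr3 0.22 ± 0.11, that of Spon1 0.00 ± 0.08 and that of Ankrd63 −0.12 ± 0.21. The test of the difference between the tissues, with the mouse as a block, did not separate them: for these 9 genes the smallest adjusted p of that difference was 0.595, for Spon1. Over all genes, 1 of 16076 passed that test (0.00622%). It was Ephb1, a receptor tyrosine kinase for ephrin B ligands on chromosome 9, whose log2 fold change was 0.45 ± 0.21 in atria (adjusted p = 0.588) and 2.41 ± 0.37 in ventricles, a difference of −2.21 ± 0.32 (adjusted p = 0.0377). Ephb1 was thus no DEG in atria.

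**Figure D3:**
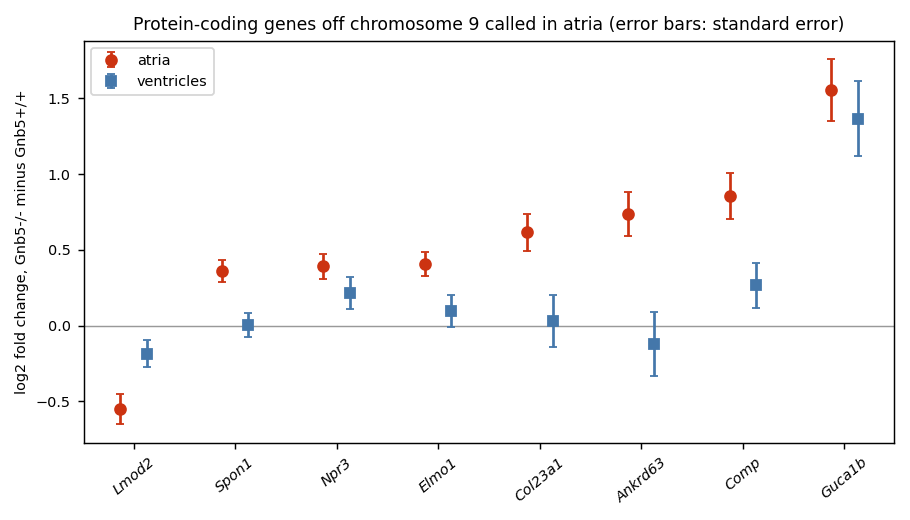
Log2 fold change between Gnb5-/- and Gnb5+/+ (with SE) in atria and in ventricles of the same mice for 8 protein-coding genes called off chromosome 9. Guca1b is at 1.55 in atria and 1.37 in ventricles, and Spon1 at 0.36 and 0.00.

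The study singled out 6 atrial genes of contraction and conduction, namely Npr3, Comp, Scn10a, Myh7, Lmod2 and Agt, so they are not independent evidence of a direction. Besides Npr3, Comp and Lmod2, the other 3 did not pass the test over all genes with edgeR. Agt, the precursor of angiotensin, ran from 11.2 through 16.3 to 21.9 CPM in Gnb5+/+ and from 8.51 through 10.4 to 12.98 CPM in Gnb5-/- atria (−0.62 ± 0.14 on the log2 scale, adjusted p = 0.0759). Myh7, the slow beta myosin heavy chain, ran from 4.77 through 10.1 to 16.2 CPM and from 3.88 through 5.01 to 6.74 CPM (−0.88 ± 0.22, adjusted p = 0.137). Scn10a, the sodium channel Nav1.8, which lies on chromosome 9, ran from 8.44 through 14.03 to 18.8 CPM and from 15.5 through 21.5 to 29.97 CPM (0.69 ± 0.18, adjusted p = 0.200). The groups of all 3 overlapped, and with DESeq2 their adjusted p-values were 0.00572, 0.0120 and 0.0347.

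Whole pathways were then read by their direction, by counts and medians beside those of all genes tested. The background for this is that 3.79% of all genes were higher and 4.36% lower at an unadjusted p below 0.05, and that the interquartile range of all log2 fold changes was −0.10 to 0.10. Lists kept their chromosome 9 members. Among the genes named below, Tpm1, Hspa8, Hcn4 and Kcnj5 lie on that chromosome. Without such members the median went from −0.17 to −0.14 for the sodium channels, where they were 5 of 10 tested. For the ventricular markers it went from −0.88 to −1.25, and for the sinoatrial markers from 0.68 to 0.51. The broadest shift was in the immediate early genes, the transcription factors and feedback regulators that cells switch on within minutes of a stimulus. All 25 tested had a log2 fold change below 0, with a median of −0.62, and 15 of 25 had an unadjusted p below 0.05. No member passed the test over all genes (DESeq2 called 1, Egr3), and no member had groups apart.

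**Figure D4:**
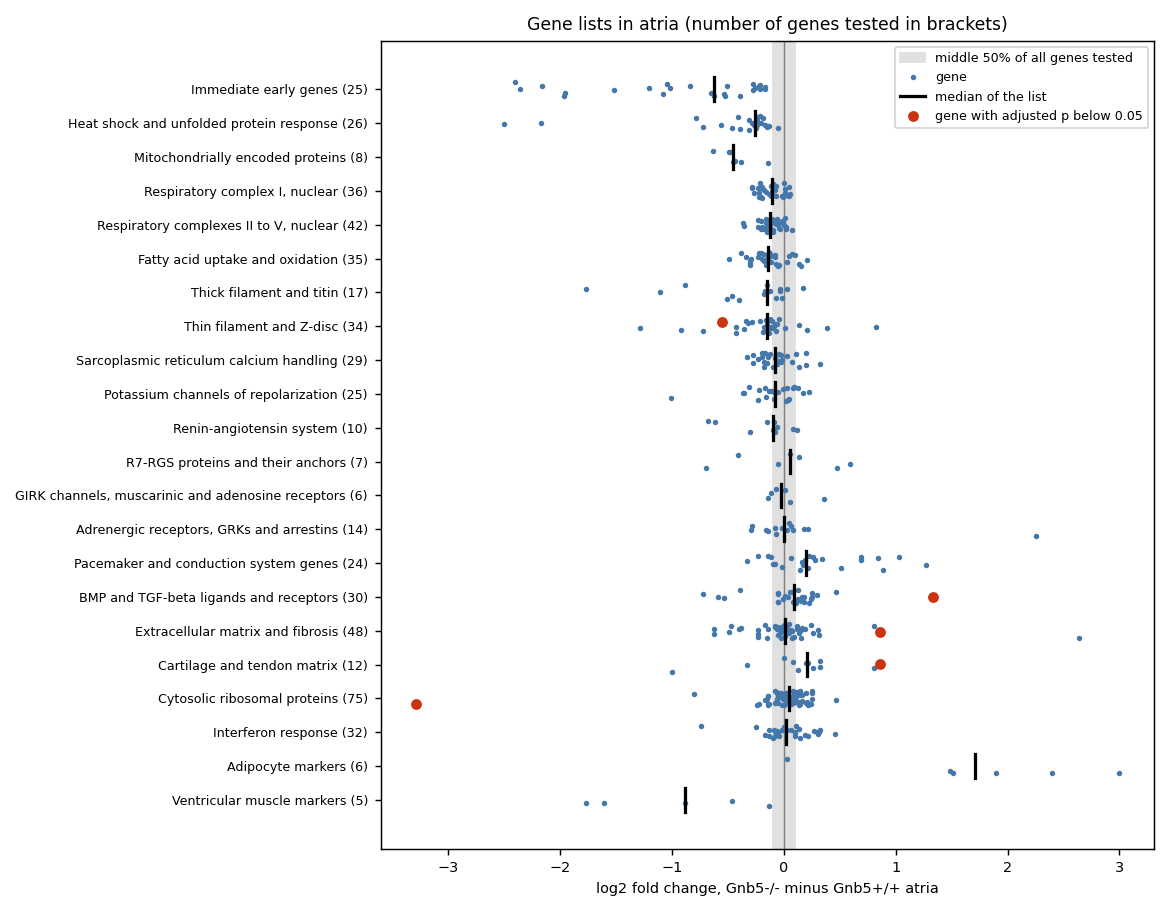
Median log2 fold change between Gnb5-/- and Gnb5+/+ atria for 22 gene lists, with a point for each gene tested; the grey band is the interquartile range of all genes (−0.10 to 0.10). The immediate early genes (median −0.62) and the mitochondrially encoded genes (median −0.45) are among the lists whose median lies below the band.

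Btg2, an antiproliferative factor, had the smallest p of the list. It ran from 20.8 through 51.5 to 76.2 CPM in Gnb5+/+ and from 19.0 through 23.0 to 27.8 CPM in Gnb5-/- atria, for which the log2 fold change was −1.04 ± 0.27 (adjusted p = 0.171). The orphan nuclear receptor Nr4a2 differed by −2.16 ± 0.60 (adjusted p = 0.227), with 1.85 to 24.9 CPM against 1.22 to 4.29 CPM. The stress-induced factor Atf3 differed by −1.97 ± 0.55 (adjusted p = 0.231), with 5.51 to 54.2 CPM against 3.26 to 8.90 CPM. In all 3 the lowest Gnb5+/+ libraries lay within the Gnb5-/- range, and the Gnb5+/+ libraries spread more widely.

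The summed level of the 25 genes showed the same form. It ran from 446 through 839 to 1259 CPM in Gnb5+/+ atria. In Gnb5+/- atria it ran from 401 through 549 to 1113 CPM, and in Gnb5-/- atria from 416 through 501 to 640 CPM. The Gnb5+/- median thus lay nearer that of the Gnb5-/- than that of the Gnb5+/+ atria. The highest sum was in Gnb5+/+ replicate 1 and the lowest Gnb5+/+ sum in replicate 6, below 4 of the Gnb5-/- libraries. Leaving out each library in turn, between 23 and 25 of the 25 stayed below 0 and the median ran from −0.67 to −0.53. In the ventricles of the same mice 24 of 25 were lower, with a median of −0.50.

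Promoters of these genes are known for the cyclic AMP response element, through which the factor CREB acts. In RefSeq promoters of GRCm38.p6 (250 bases before the start site), the core TGACG or its reverse complement CGTCA was found in 12 of the 20 immediate early genes with an entry (60.0%), in 25.6% of the 11812 genes tested that have an entry, and in 17.9% of the whole table. It was also found in 11 of 24 heat shock and unfolded protein response genes (45.8%). Stretches of 120 bases from the promoters of 4 members are shown along the gene's strand. These cores, or the full palindrome TGACGTCA, are in capitals. The 4 are the members of smallest p among those that hold a core, and each stretch was placed to include a core. A core in each was thus fixed by the choice.
Btg2, chr1:134079286-134079405, minus strand: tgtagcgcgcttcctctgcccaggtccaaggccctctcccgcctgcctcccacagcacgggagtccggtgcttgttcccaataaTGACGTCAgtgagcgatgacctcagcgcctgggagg
Nr4a2, chr2:57124100-57124219, minus strand: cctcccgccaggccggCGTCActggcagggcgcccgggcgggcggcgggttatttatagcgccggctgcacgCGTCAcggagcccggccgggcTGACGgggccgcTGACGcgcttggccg
Atf3, chr1:191183334-191183453, minus strand: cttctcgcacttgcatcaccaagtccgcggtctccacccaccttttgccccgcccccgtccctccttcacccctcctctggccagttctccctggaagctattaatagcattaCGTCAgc
Fosb, chr7:19310091-19310210, minus strand: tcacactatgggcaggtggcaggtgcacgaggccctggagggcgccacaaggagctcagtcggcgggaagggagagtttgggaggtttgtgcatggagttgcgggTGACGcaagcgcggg
Btg2 holds the full palindrome, as 2 of the 20 did and 2.61% of the genes tested. Nr4a2 holds 4 cores, and Atf3 and Fosb 1 each. These matches are letters in a window and no measure of binding. The share in the list follows from which genes were listed and does not depend on these libraries. It tests no cause of the lower levels.

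The heat shock and unfolded protein response genes, which encode chaperones and their regulators, lay below 0 in 26 of 26 tested, though by less (median −0.26), and 9 of 26 had an unadjusted p below 0.05, a count that ran from 5 to 17 with 1 library left out. No member passed the test. Hspa1a, an inducible HSP70, ran from 3.55 through 5.24 to 81.9 CPM in Gnb5+/+ and from 1.43 through 3.01 to 8.84 CPM in Gnb5-/- atria (−2.50 ± 0.78 on the log2 scale, adjusted p = 0.322). The constitutive chaperone Hspa8 ran from 551 through 771 to 1090.5 CPM and from 349 through 516 to 717 CPM (−0.57 ± 0.19, adjusted p = 0.385). High values of Hspa1a were in Gnb5+/+ replicates 2 and 5. The summed level of the list ran from 2913 through 4054 to 4657 CPM in Gnb5+/+ atria. It ran from 2792 through 2952 to 3139 CPM in Gnb5+/- and from 2787 through 3136 to 3540 CPM in Gnb5-/- atria. The Gnb5+/- median was thus below that of the Gnb5-/- atria, and both were below that of the Gnb5+/+ atria. In ventricles 25 of 26 were lower, with a median of −0.19.

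**Figure D5:**
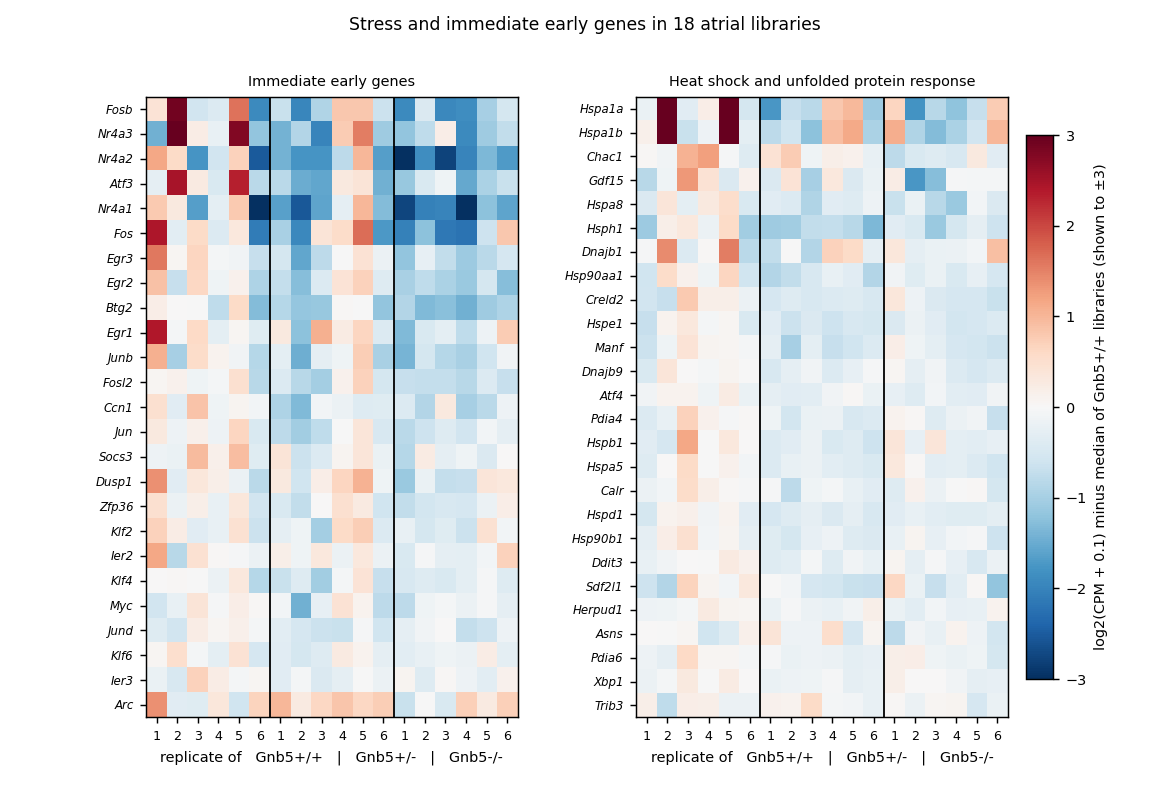
Level of the immediate early and heat shock genes in each of the 18 atrial libraries, as log2(CPM + 0.1) minus the Gnb5+/+ median of the gene, with the colour scale limited at ±3. The high values (red) are spread over several Gnb5+/+ libraries, and Gnb5+/+ replicate 6 (immediate early sum 446 CPM) is blue at most immediate early genes, as the Gnb5-/- libraries are.

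Genes of the mitochondrion were lower as a group, the nuclear ones by small amounts. Of the 13 mitochondrially encoded protein genes 5 were below the filter on low counts. These were mt-Nd4l, mt-Co2, mt-Co3, mt-Atp6 and mt-Atp8, with at most 10 reads in any Gnb5+/+ or Gnb5-/- atrial library. The list and the share of mitochondrial reads thus cover only part of these genes, and why was not tested. All 8 tested lay below 0, with a median of −0.45, and 5 had an unadjusted p below 0.05, none passing the test. For mt-Co1, a catalytic subunit of cytochrome oxidase, the log2 fold change was −0.44 ± 0.13 (adjusted p = 0.286). In ventricles the median of the 8 was −0.09. Among nuclear genes, 28 of 36 of complex I were lower (median −0.11) and 37 of 42 of complexes II to V (median −0.13), with Cox7a1 at −0.37 and Ndufa10 at −0.20. Of 35 genes of fatty acid uptake and oxidation 28 were lower (median −0.15), with Acadm at −0.30 and Fabp3 at −0.39, and of 28 glycolytic genes 21 (median −0.07). None of these nuclear genes passed the test, and each nuclear list had no more than 8 members at an unadjusted p below 0.05. With 1 library left out that number ran from 1 to 12 for complex I, from 1 to 12 for complexes II to V, from 3 to 14 for fatty acid genes and from 1 to 5 for glycolytic genes. The share of mitochondrial reads given above was also lower in Gnb5-/- atria, and the mitochondrially encoded list is drawn from the same reads. Complex I sums ran from 4596 to 5767 CPM in Gnb5+/+ and from 4221 to 5371 CPM in Gnb5-/- atria. Only the libraries with the lowest and the highest share are set beside their sums here. Gnb5-/- replicate 1 had the lowest share (14.1%) and a complex I sum of 5266 CPM, above its group's median of 4923 CPM. Gnb5+/+ replicate 2 had the highest share (34.5%) and a sum of 5347 CPM, below its group's median of 5380 CPM. The part of the share in these medians was not tested.

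Sarcomere genes leaned the same way. Of 34 thin filament and Z-disc genes 29 were lower (median −0.15), 8 of them at an unadjusted p below 0.05, and Lmod2 alone passed the test. Examples are Tpm1, the main cardiac tropomyosin (−0.35), Xirp1 (−0.43), of the intercalated disc, and Myot (−0.72), of the Z-disc. Cardiac actin, Actc1, the most abundant of the list per length, had 3859.8 CPM per kb in Gnb5+/+ and 3685 CPM per kb in Gnb5-/- atria (−0.07 ± 0.18), and cardiac troponin I, Tnni3, 1790 and 1649 (−0.12 ± 0.10). Of 17 thick filament genes 15 were lower (median −0.15). Per length of transcript, the regulatory light chain Myl7 had 5233 CPM per kb in Gnb5+/+ and 5907 CPM per kb in Gnb5-/- atria (0.17 ± 0.13). Myh6, the alpha myosin heavy chain, had 4299.8 CPM per kb in Gnb5+/+ and 3877 CPM per kb in Gnb5-/- atria, and its log2 fold change was −0.15 ± 0.08. Of 29 genes of calcium handling in the sarcoplasmic reticulum 22 were lower (median −0.08), with Hrc, the histidine-rich calcium binding protein, at −0.27 Ryr2, the release channel, at −0.19 and Atp2a2, the calcium pump, at −0.07. The 5 ventricular markers were also all lower (median −0.88), with the sums given above, and their part in the sarcomere medians was not tested.

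The autonomic G protein pathway that contains Gnb5 had no DEG besides Gnb5 with edgeR, and DESeq2 called 1 more, Gpr158. Of the R7 RGS genes and their anchors, 7 were tested, 4 above 0, with a median of 0.05. The anchor Gpr158, an orphan receptor that binds RGS7 with G beta 5, had the smallest p, with overlapping groups, 7.86 CPM being the lowest Gnb5+/+ and 8.23 CPM the highest Gnb5-/- level (log2 fold change −0.70 ± 0.18, adjusted p = 0.175). The log2 fold changes of Rgs6 and Rgs7 were 0.13 ± 0.07 and 0.05 ± 0.10. All 4 conventional beta subunit genes lay above 0 (median 0.10), led by Gnb3 at 0.61 ± 0.22 (adjusted p = 0.415).

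The receptors and channels of vagal slowing were abundant, and none passed the test. Per length, Kcnj3 (GIRK1) had 159 CPM per kb in Gnb5+/+ and 152 in Gnb5-/- atria, Chrm2 (the M2 receptor) 93.8 and 86.5, and Kcnj5 (GIRK4) 72.7 and 73.0. Their log2 fold changes were −0.07 ± 0.12, −0.12 ± 0.10 and 0.01 ± 0.09. Of 14 adrenergic receptors, receptor kinases and arrestins, 7 were above and 7 below 0. Arrb1, beta-arrestin 1, had the smallest p, at 0.22 ± 0.06 (adjusted p = 0.297). The most abundant of them per length were the receptor kinase Grk2 (0.05 ± 0.07) and the alpha 1B receptor Adra1b (0.03 ± 0.11). Adrb3, the beta 3 receptor of fat, had 6.41 CPM in its highest Gnb5-/- library, which was also the highest in adipocyte markers, and at most 0.629 CPM in Gnb5+/+ atria (2.25 ± 0.78 on the log2 scale, adjusted p = 0.390).

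The adenylyl cyclases (7 of 8 higher, median 0.07), the G alpha subunits (8 of 12 higher, median 0.06), the G gamma subunits (4 of 9 higher, median −0.02), the RGS proteins of other families (7 of 12 higher, median 0.10), the phosphodiesterases (11 of 18 higher, median 0.01) and protein kinase A with its anchors (5 of 16 higher, median −0.06) held no DEG.

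Genes of the pacemaker and conduction system lay mostly above 0, 17 of 24 with a median of 0.20. Besides Scn10a, Gja5, the connexin 40 of atrial muscle and conduction fibres, had 126 to 203 CPM in Gnb5+/+ and 147 to 242 CPM in Gnb5-/- atria (0.34 ± 0.14 on the log2 scale, adjusted p = 0.493). Hcn4, the main pacemaker channel of the sinoatrial node, ran from 4.08 through 5.95 to 19.9 CPM and from 1.77 through 21.6 to 36.6 CPM, the Gnb5-/- group thus reaching both below and above the Gnb5+/+ group (1.03 ± 0.53, adjusted p = 0.665). The 6 sinoatrial markers, all above 0, summed to 30.9 to 68.5 CPM in Gnb5+/+ and 23.98 to 97.5 CPM in Gnb5-/- atria, and their part in the pacemaker median was not tested.

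Repolarising potassium channels lay more often below 0 (15 of 25, median −0.08). Kcnd3 and Kcnd2, which carry the transient outward current, were at −0.36 ± 0.11 (adjusted p = 0.283) and −0.37 ± 0.12 (adjusted p = 0.385). The most abundant potassium channels of the list per length were the background channel Kcnk3, at 69.6 CPM per kb in Gnb5+/+ and 63.6 in Gnb5-/- atria, and the ATP-sensitive Kcnj11, at 43.7 and 44.5. Of the voltage-gated sodium channels 7 of 10 (median −0.17) and of the calcium channels 11 of 16 (median −0.08) were lower. Cacna1h, a T-type calcium channel and the most abundant calcium channel gene of the list per length, was at −0.08 ± 0.11. None of the 3 channel lists held a DEG with edgeR, and Scn10a, of the sodium channel list, was called by DESeq2 as given above.

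Genes of matrix and fibrosis did not share a direction, whereas most cartilage and tendon matrix genes were higher. Of 48 genes of matrix and fibrosis 26 were higher (median 0.01). Of 12 cartilage and tendon matrix genes tested, which include Comp, 10 were higher (median 0.20), with Fmod at 0.26 and Acan at −1.001. Of 30 ligands and receptors of the BMP and TGF-beta families 21 were higher (median 0.09), and Bmp5 alone passed the test. The target gene Id2, which BMP signals induce, was at 0.30 ± 0.11 (adjusted p = 0.447), and Bmp6 at 0.25 ± 0.14 (adjusted p = 0.693).

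Of 11 natriuretic peptide genes 7 were higher (median 0.07). The peptide Nppa differed by 0.21 ± 0.16 and Nppb by −0.31 ± 0.32, and Npr3 alone passed the test. Of 10 renin-angiotensin genes 8 were lower (median −0.09), where the Mas receptor gene Mas1 was at −0.68 ± 0.17 (adjusted p = 0.168) beside Agt.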

How the data were processed

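The authors made single-end, strand-specific libraries (TruSeq Stranded), trimmed reads with cutadapt 1.8, aligned them to GRCm38 with STAR 2.5.3a and counted them per Ensembl gene with HTSeq 0.9.1. The deposited values are these raw counts per gene. Rows of reads in no gene (5.63% to 6.74% of uniquely aligned reads) or in several (0.913% to 1.14%) were left out. Here counts of the 18 atrial libraries were filtered (edgeR filterByExpr, minimum count 10), normalised by TMM and fitted by genotype with edgeR 4.0.16 (quasi-likelihood test, Benjamini-Hochberg adjusted p below 0.05, R 4.3.3). All 3 genotypes shared 1 estimate of the spread. The atria-ventricle difference used the 24 libraries of 12 mice with the mouse as a block (edgeR). CPM in the text are TMM-normalised. Exact two-sided permutation over the 924 divisions of 12 libraries gives at least p = 0.00216, which each gene with groups apart reaches. Gene positions are those of GENCODE M21. Processing alternatives were other normalisation (RLE), DESeq2 1.42.0, no filter, the 12 libraries alone, a replicate block, 1 surrogate variable (sva 3.50.0) and each library left out.

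The genes and lists were chosen with earlier results of these data known. Named genes were Gnb5, the genes called off chromosome 9, the 15 of smallest p on chromosome 9, the genes the study names for atria, the gene called in the tissue test and, for each list, called members or up to 3 of smallest p, with the 2 highest per length for receptors, channels and sarcomere proteins. A few genes that the rule covers are not reported here. Any other gene named was chosen after its values were seen.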

Additional observations from a re-analysis of the deposited data

Results flagged for a closer look

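Within each group of 6 atria, the highest and lowest library of every named gene was compared with its nearest neighbour (Dixon's criterion at 95%). The criterion's rate of about 1 in 20 by chance holds for independent, normally distributed values. Here genes share libraries and some counts are near 0, so the number found is no measure of an excess. In 26 of 220 groups a library lay far from the rest. At Gnb5+/+ replicate 1 these were Rpl29 (4.58 CPM), Hemk1 (15.7 CPM), Gm42755 (0.190 CPM), Fbxw15 (0.570 CPM), Oaz2-ps (0.522 CPM), Gm11868 (4.89 CPM) and Gm8210 (0.285 CPM), each on the side of the Gnb5-/- atria, and the secreted protein gene Dkk3 (1099 CPM). At Gnb5+/+ replicate 2 they were Fam81a (4.83 CPM), Hey2 (5.49 CPM) and mt-Co1 (135074 CPM). Other Gnb5+/+ libraries stood out at Hrc (replicate 3, 482 CPM), Kcnj5 (replicate 4, 314 CPM) and Id2 (replicate 6, 40.99 CPM).

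In Gnb5-/- replicate 1, Gnb5 (2.601 CPM), Gm42755 (1.44 CPM), Dkk3 (1285 CPM) and Nppa (23777 CPM) were high and mt-Co1 (52150.1 CPM) was low. Gnb5-/- replicate 2 was high at Adrb3 (6.41 CPM), Cfd (219.9 CPM) and Me1 (152 CPM), and its adipocyte markers summed to 560 CPM. Gnb5-/- replicate 4 was high at Dock3 (4.54 CPM), replicate 5 at Tap1 (23.0 CPM), and replicate 6 at Kcnd2 (38.3 CPM) and Ryr2 (2474 CPM).

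Ephb1 responded differently in the tissues of the same mice, with a difference of −2.21 ± 0.32 between the log2 fold changes of atria and ventricles (adjusted p = 0.0377, edgeR with the mouse as a block). In atria it ran from 1.66 to 3.22 CPM in Gnb5+/+ and from 2.52 to 4.65 CPM in Gnb5-/- libraries. No explanation of these libraries or of Ephb1 was tested.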

How the results depend on the processing

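Chromosome 9 stayed the source of most calls except under DESeq2, and the number of calls moved with the model. With DESeq2 110 genes were called, 54 on chromosome 9 and 56 elsewhere, 50 higher and 60 lower. With the 12 Gnb5-/- and Gnb5+/+ libraries alone 20 were called (17 on chromosome 9, 3 elsewhere, 9 higher, 11 lower), and with 1 surrogate variable 22 (18, 4, 8 and 14). RLE scaling gave 40 and no filter 42. Adjusting over the other chromosomes alone left 2 calls there. Replicate numbers did not pair the atria (correlations −0.08 to 0.15), and a replicate block gave 37 calls, 26 on chromosome 9 and 11 elsewhere. With 1 library left out, calls ran from 24 (without Gnb5-/- replicate 4) to 62 (without Gnb5+/+ replicate 1), those on chromosome 9 from 19 to 41, those elsewhere from 3 to 21, higher from 8 to 35 and lower from 15 to 27. The total moved by more than 1.5 times without Gnb5-/- replicate 4 and without Gnb5+/+ replicates 1, 2 (27), 3 (25), 4 (27) and 5 (25). Leaving out any 1 library kept 21 of the 41 genes called in all 12 fits. The tissue difference called 1 gene with either scaling and 135 without the filter. The causes were not tested. Of the 41 called genes and Myh7, Scn10a and Agt, for which each alternative was computed, none changed direction. DESeq2 called Myh7, Scn10a and Agt in addition, and of the listed genes also Gpr158, Egr3, Ccnd2 and Cfd. Myh7 also passed with the block (adjusted p = 0.0169) and without Gnb5+/+ replicate 1 (0.0118), and Agt without Gnb5+/+ replicate 2 (0.0258). No scaling moved the median of all genes by 0.1. Low counts limit Gm42755, Fam83b, Gm5561, Gm8210, Gm7049 and Oaz2-ps, whose fitted changes rest on a few reads in 1 group. Gm11868 had more reads. Of the 12 fits that left out 1 library, only that without Gnb5+/+ replicate 1 called Gm11868, Gm8210 or Fbxw15. The adjusted p (edgeR) of Gm11868 was 0.0395 with all libraries and 3.27e-13 without that replicate.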

Other observations

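Markers of cells around the heart muscle varied between atria. All 6 adipocyte markers tested were above 0 (median log2 fold change 1.71, 5 of 6 at an unadjusted p below 0.05). Cfd, the adipocyte protease adipsin, ran from 2.80 through 5.38 to 14.9 CPM in Gnb5+/+ and from 1.29 through 25.1 to 220 CPM in Gnb5-/- atria (3.00 ± 0.82, adjusted p = 0.224 by edgeR). DESeq2 called it. The Gnb5-/- group reached both below and above the other, and the list's median was 0.86 without Gnb5-/- replicate 2. The 3 lymphocyte markers were above 0 (median 0.75), with sums of 5.16 to 7.76 CPM against 5.13 to 12.8 CPM. The 3 blood markers had a median of 0.57 with sums of 1520 to 2881 CPM against 989 to 8711 CPM, the highest in Gnb5-/- replicate 1. Of the 4 neuron markers 2 were tested, both above 0 (median 1.88). The 4 summed to 0.183 to 0.723 CPM in Gnb5+/+ and 0.200 to 5.46 CPM in Gnb5-/- atria, the highest in Gnb5-/- replicate 4, the others being at most 1.14 CPM. Lists of fibroblasts (0.04), endothelium (0.03), smooth muscle (0.06), Schwann cells (0.12), macrophages (0.02) and mesothelium (0.13) had medians nearer 0.

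Signalling and metabolic lists that the report has not described held no gene called by edgeR, and DESeq2 called 1, Ccnd2. Of 14 Notch genes 8 were higher (median 0.01), with the target Hey1 at 0.30 ± 0.12, the receptor Notch1 at 0.22 ± 0.09 and the ligand Jag1 at 0.16 ± 0.07. Of 20 sterol genes 13 were higher (median 0.06), with the synthase Lss at 0.35 ± 0.12. Interferon response genes were split evenly, 16 and 16 (median 0.02), with the peptide transporter Tap1 at 0.46 ± 0.17. Of 26 cell cycle genes 15 were higher (median 0.06), and cyclin D2, Ccnd2, ran from 162 through 174 to 189 CPM in Gnb5+/+ and from 172 through 213 to 257 CPM in Gnb5-/- atria (0.31 ± 0.08, adjusted p = 0.181 by edgeR). Of 16 genes of insulin-like growth factor and growth hormone signalling 11 were lower (median −0.06), with the receptor Igf1r at 0.30 ± 0.10 and the insulin receptor substrate Irs2 at −1.14 ± 0.41. Of 12 thyroid hormone response genes 11 were lower (median −0.08), with the transcription factor Klf9 at −0.35 ± 0.12. None of the 19 circadian clock genes had an unadjusted p below 0.05 (median −0.03).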
